A study of Rattus norvegicus with 9 samples.

Results

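The epidermal growth factor (EGF) family was followed in rat kidney through 10 genes, the ligands Egf, Tgfa, Hbegf, Areg, Ereg, Btc and Nrg1 and the receptors Egfr, Erbb2 and Erbb3. Members were all gene probes of the array that carry one of these names, which gave 14 of 30367 gene probes (10 of 26115 gene names). Egf had been chosen because it was much higher in MSC kidneys on these same arrays, so its values are a description and carry no test. The other 9 genes entered as its relatives.

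The kidneys came from Fisher F344 rats and were all taken after 20 min. of warm ischaemia, a model of donation after circulatory death. The 5 NP kidneys were not perfused. The 4 MSC kidneys were perfused in the cold for 4 hrs with Belzer solution, an organ preservation fluid, to which mesenchymal stromal cells (MSC) from the bone marrow of Sprague-Dawley rats transgenic for EGFP had been added. Kidneys perfused with the fluid alone were not analysed here, and what perfusion and MSC each brought to a difference cannot be told apart. For the NP kidneys the submitters' titles name a perfusion without MSC, against the treatment label and the study's text, from which the name NP was taken. Each array measured 1 kidney with 1 colour (Cy3), and the number of arrays limits the precision.

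EGF family ligands are made as precursors that span the cell membrane. Proteases cut the growth factor loose, and it then binds a receptor tyrosine kinase of the ERBB family, which pairs with another ERBB receptor and starts the ERK and AKT kinase cascades. The kidney is known as one of the richest sources of Egf mRNA in the body, made mostly by the thick ascending limb and the distal convoluted tubule. EGFR signalling is known to take part in the repair of tubules after injury, and loss of kidney Egf accompanies acute and chronic damage. ERBB2 has no ligand of its own, and ERBB3, a receptor for neuregulins such as NRG1, signals mainly through its partners.

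Of the 14 probes, 11 probes of 8 genes passed the filter on low brightness, and Ereg, Btc and 1 of the 3 Erbb2 probes did not. Brightness is given as the normalised log2 intensity of each array, a scale on which a difference of 1 is a doubling. It compares arrays for the same probe and does not rank different probes. A probe was called at a false discovery rate (FDR, from limma with Benjamini-Hochberg adjustment over 15628 probes) under 0.05 with a fold change over 1.5. With this rule limma called 0 probes of the whole array, which is 0% of those tested, against 1825 probes (11.7%) at an unadjusted p under 0.05. The study had reported Tmem52b and Calb1 as significantly higher in MSC kidneys on these arrays, by the same limits. Neither gene was called here.

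Sequences are shown for 3 probes of ligands that passed the filter and lie in coding sequence, since they tell which piece of the message each measured. Each has 60 bases as deposited, 5′ to 3′, with the codons for cysteine in capitals, the residue whose disulphide bonds hold the EGF fold together. The Egf probe A_64_P120734 (rn4 chr2:227123727-227123786, minus strand) covers the end of the stretch that codes for the mature growth factor. The Nrg1 probe A_64_P281840 (chr16:64093933-64093992, plus strand) lies in the EGF-like domain, and the Tgfa probe A_64_P122865 (chr4:120432206-120432265, plus strand) in the part that spans the membrane. The cysteine marked in the Tgfa probe is thus not part of the EGF fold.
Egf A_64_P120734: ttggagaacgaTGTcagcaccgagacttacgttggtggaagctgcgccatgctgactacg
Nrg1 A_64_P281840: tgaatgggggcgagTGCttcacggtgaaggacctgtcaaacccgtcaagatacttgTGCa
Tgfa A_64_P122865: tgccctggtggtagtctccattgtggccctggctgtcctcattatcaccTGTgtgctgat

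Egf, the founding ligand of the family, was measured by a pair of probes, and both were brighter on average in MSC kidneys. The probe in the growth factor stretch, A_64_P120734, read 12.98, 11.78, 11.89, 12.15 and 12.76 (log2 intensity) in NP kidneys 1 to 5 and 13.59, 13.49, 13.64 and 14.03 in MSC kidneys 1 to 4. All 4 MSC kidneys lay above all 5 NP kidneys. The means were 12.31 ± 0.54 (SD, n = 5) and 13.69 ± 0.23 (SD, n = 4), a log2 difference of 1.37 (SE 0.25) or 2.59-fold. This ranked 11 among the 15628 differences ordered from the highest, where 138 probes (0.883%) were over 1.5-fold higher in MSC kidneys.

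The other Egf probe, A_42_P831499, starts 774 bases further down the message (chr2:227104446-227104505, minus strand) and is printed at 10 spots of each array. It read 15.84, 14.77, 14.90, 15.18 and 15.43 in NP kidneys and 16.02, 15.63, 15.89 and 15.95 in MSC kidneys. Here NP kidney 1 lay within the MSC range, and 3 of 4 MSC kidneys were above every NP kidney. The means were 15.22 ± 0.43 (SD, n = 5) and 15.87 ± 0.17 (SD, n = 4), a log2 difference of 0.65 (SE 0.20) or 1.57-fold. Since Egf was picked for this contrast, nothing is read from these ranks.

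The probes of Egf thus gave the same direction with unequal size. On the same array, the log2 intensity of A_64_P120734 less that of A_42_P831499 was -2.86, -2.99, -3.01, -3.03 and -2.66 in NP kidneys and -2.43, -2.14, -2.25 and -1.93 in MSC kidneys. The groups did not overlap, and the means differed by 0.72. No spot of either probe was saturated, and the cause of the unequal size was not tested. Among NP kidneys both probes gave 1 order, with kidney 1 the highest, then 5, 4, 3 and 2. In the Tgfa and Erbb2 pairs that passed the filter, the downstream probe was also lower relative to the upstream probe in MSC kidneys on average. For Tgfa, downstream less upstream ran from -0.088 to 0.18 in NP and from -0.31 to -0.22 in MSC kidneys, without overlap. For Erbb2, upstream less downstream rose by 0.11, with overlap. The cause was not tested for these pairs either.

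**Figure D1:**
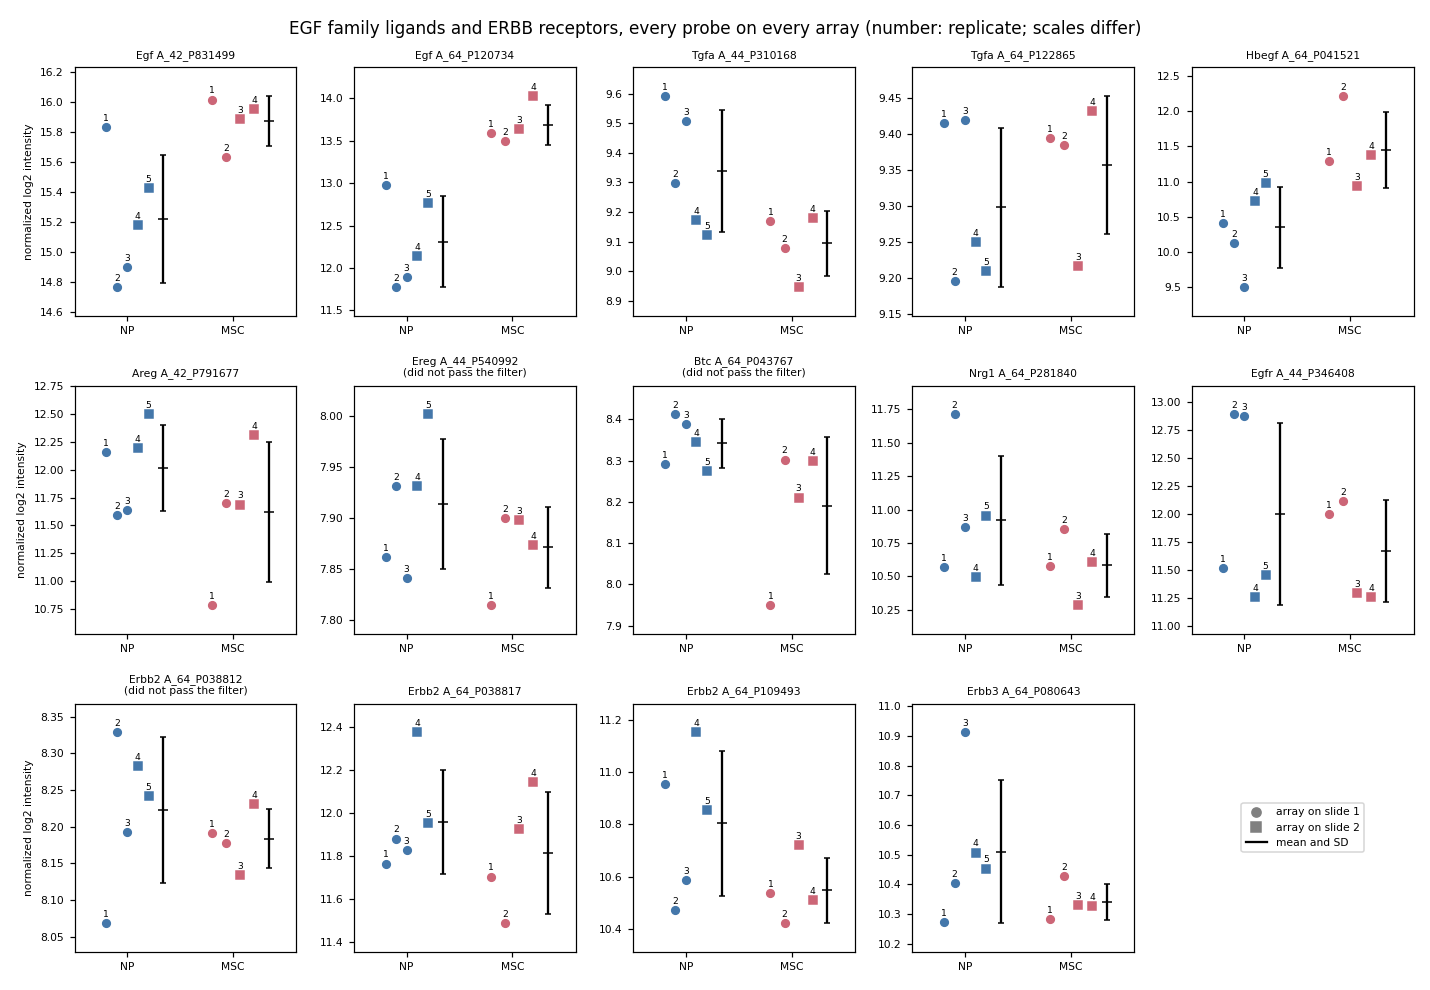
Normalised log2 intensity (vertical axis, its scale set per panel) of each of the 14 member probes, with 1 point per array numbered by replicate, circles for slide 1, squares for slide 2 and bars for the mean ± SD of each group. The 4 MSC points of the Egf probe A_64_P120734 lie above all 5 NP points, and in the panels of the other 10 probes that passed the filter the groups overlap.

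Hbegf, the heparin-binding ligand that binds EGFR and ERBB4, had the largest difference among the members other than Egf. Its only probe, A_64_P041521 (chr18:29143627-29143686, minus strand), read 10.41, 10.13, 9.50, 10.73 and 10.98 in NP kidneys and 11.29, 12.21, 10.93 and 11.37 in MSC kidneys. MSC kidney 3 lay just below NP kidney 5, and the other MSC kidneys were above all NP kidneys. The means were 10.35 ± 0.57 (SD, n = 5) and 11.45 ± 0.54 (SD, n = 4), a log2 difference of 1.10 (SE 0.32) or 2.15-fold, with a 95% interval of 0.39 to 1.82. The limma FDR was 0.332, so it was not called, and the two-sided exact permutation test gave p = 0.0238, where 0.00794 is the smallest p that 5 against 4 kidneys allow. This p is the lowest of 9 such tests, 1 for each member probe other than Egf that passed the filter. The arrays were printed on 2 slides, and the Hbegf difference was 1.74 within slide 1 (NP kidneys 1 to 3, MSC kidneys 1 and 2) and 0.30 within slide 2. For Egf the within-slide values were 1.32 and 1.38 for A_64_P120734 and 0.66 and 0.62 for A_42_P831499.

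Tgfa, the ligand that shares EGFR with Egf, was measured by a pair of probes that did not give the same direction. The coding probe A_64_P122865 read 9.41, 9.20, 9.42, 9.25 and 9.21 in NP kidneys and 9.39, 9.38, 9.22 and 9.43 in MSC kidneys, a log2 difference of 0.06 (SE 0.08, FDR from limma 0.812). The probe A_44_P310168, which starts 3509 bases further down (chr4:120437505-120437564, plus strand), read 9.59, 9.30, 9.51, 9.17 and 9.12 against 9.17, 9.08, 8.95 and 9.18. That is a log2 difference of -0.24 (SE 0.11, FDR from limma 0.440), and its 95% interval ran from -0.50 to 0.01. Groups overlapped on each probe taken alone, though not in the same-array difference given above, and neither log2 difference passed the test. From the background-subtracted intensity the latter was -0.44, and with array weights -0.14, while the former stayed between 0.033 and 0.11 under all alternatives.

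Areg codes for amphiregulin, a ligand of EGFR that is often made by injured epithelium. Its probe A_42_P791677 (chr14:18466438-18466497, minus strand) read 12.16, 11.60, 11.64, 12.19 and 12.50 in NP kidneys and 10.78, 11.70, 11.69 and 12.31 in MSC kidneys. MSC kidney 1 was the lowest of all arrays and the rest lay within the NP range. The log2 difference was -0.40 (SE 0.29, FDR from limma 0.616), and it was -0.12 without MSC kidney 1, -0.63 without MSC kidney 4 (FDR from limma 0.563) and -0.67 with array weights (FDR from limma 0.276). Areg did not pass the test.

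Nrg1, a ligand of ERBB3 and ERBB4, read 10.57, 11.71, 10.87, 10.50 and 10.96 in NP kidneys and 10.58, 10.86, 10.29 and 10.61 in MSC kidneys. NP kidney 2 stood above the others and the remaining values overlapped. The log2 difference was -0.34 (SE 0.23, FDR from limma 0.585) and -0.14 without NP kidney 2 or -0.19 with arrays weighted by quality.

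The ligands Ereg and Btc, which bind EGFR and ERBB4, were dim and did not pass the filter. Ereg had means of 7.91 ± 0.064 (SD, n = 5) in NP and 7.87 ± 0.040 (SD, n = 4) in MSC kidneys and was well above background on 0 of 9 arrays, so no fold is given. Btc ranged from 8.27 to 8.41 in NP kidneys and from 7.95 to 8.30 in MSC kidneys. It was well above background on 5 NP arrays and 3 MSC arrays, and it had an FDR from limma of 0.632 when no filter was applied. The Erbb2 probe that did not pass, A_64_P038812, lay between 8.07 and 8.33 in all kidneys and was well above background on 3 NP arrays and 1 MSC array.

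The receptors gave no call, and each of their probes that passed the filter had a lower mean in MSC kidneys. Egfr, the receptor of Egf, Tgfa, Hbegf and Areg, was read by A_44_P346408 (chr14:97788051-97788110, plus strand) at 11.52, 12.89, 12.88, 11.26 and 11.45 in NP kidneys and 12.00, 12.12, 11.29 and 11.26 in MSC kidneys. NP kidneys 2 and 3 stood above all other arrays, and the other NP kidneys lay close to the lowest MSC kidneys. The means were 12.00 ± 0.81 (SD, n = 5) and 11.67 ± 0.46 (SD, n = 4), a log2 difference of -0.33 (SE 0.39, FDR from limma 0.766). Leaving out 1 array gave -0.11 without NP kidney 2 or 3, -0.52 without NP kidney 4, and -0.21 and -0.19 without MSC kidneys 3 and 4. With arrays weighted by quality the sign turned, to 0.070. NP kidneys 2 and 3, the highest for Egfr, were the lowest for both Egf probes.

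Erbb2, the shared partner receptor, had a pair of probes that passed. A_64_P038817 (chr10:87242482-87242541, plus strand) read 11.77, 11.88, 11.83, 12.38 and 11.95 against 11.70, 11.49, 11.93 and 12.14 in MSC kidneys. A_64_P109493 (chr10:87242734-87242793, plus strand) read 10.96, 10.47, 10.59, 11.15 and 10.85 against 10.54, 10.42, 10.72 and 10.51. The log2 differences were -0.14 (SE 0.16, FDR from limma 0.747) and -0.26 (SE 0.14, FDR from limma 0.502), with overlap on both. The first was -0.041 without NP kidney 4, -0.035 without MSC kidney 2, -0.25 without MSC kidney 4 and -0.30 with array weights, and the second was -0.17 without NP kidney 4. Erbb3, read by A_64_P080643 (chr7:1858095-1858154, minus strand), gave 10.27, 10.40, 10.91, 10.51 and 10.45 against 10.28, 10.43, 10.33 and 10.33. MSC kidneys sat close together inside the NP range, with a log2 difference of -0.17 (SE 0.12, FDR from limma 0.606) that was -0.068 without NP kidney 3.

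Leaving out Egf, 9 probes of 7 member genes were tested. None was called, and 1 of 9 (Hbegf) had an unadjusted p under 0.05 in limma, beside 11.7% of all probes. The mean was lower in MSC kidneys for 7 of the 9, while the median log2 difference over all probes was -0.005. None of the 9 had groups that did not overlap, which 492 probes (3.15%) did with MSC higher and 336 (2.15%) with MSC lower.

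**Figure D2:**
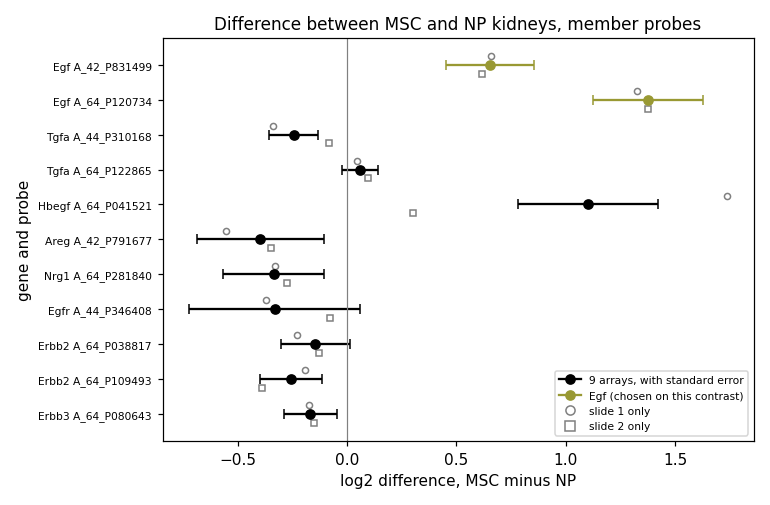
Log2 difference of MSC less NP kidneys (horizontal axis) for the 11 member probes that passed the filter, with bars for the standard error and open symbols for the difference within slide 1 (circles) and slide 2 (squares). Hbegf lies at 1.10 with 1.74 and 0.30 in the slides, and Egf, which was chosen on this contrast, is drawn in another colour.

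The other genes of the pathway were read from lists of 67 genes, of which 65 were on the array and 56 passed the filter with 69 probes. In limma 0 of the 69 were called, 4 were higher and 4 lower at an unadjusted p under 0.05 (background 6.52% and 5.16%), and the median log2 difference was -0.035. Of the remaining ligands and receptors only Erbb4, the receptor shared by Hbegf and Nrg1, passed the filter. It read 8.54, 9.59, 9.21, 9.02 and 9.04 in NP kidneys and 8.50, 8.81, 8.33 and 8.64 in MSC kidneys, a log2 difference of -0.51 (SE 0.19, FDR from limma 0.371). Epgn, Nrg2, Nrg3 and Nrg4 did not pass.

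Among 5 sheddase probes, Adam17, the protease that releases Tgfa, Hbegf and Areg, differed by 0.21 (FDR from limma 0.494), and Rhbdf2 by 0.08. Rhbdf1 (iRhom1), which brings ADAM17 to the cell surface, read 12.21, 12.36, 12.21, 12.37 and 12.40 in NP kidneys and 12.10, 11.98, 12.02 and 11.88 in MSC kidneys. Its groups did not overlap, and its log2 difference of -0.31 (SE 0.08) had an FDR from limma of 0.332. Of 36 probes for adaptors and kinases, 3 were higher and 2 lower at an unadjusted p under 0.05, beside 6.52% and 5.16% of all probes. Sos2, an exchange factor for RAS, differed by -0.62 on one probe (A_64_P142430), where the groups did not overlap, and by -0.12 on its other probe. Araf, a RAF kinase, did not overlap on one probe (0.26) and had differences between -0.15 and 0.13 on the others. Akt1, a kinase of the AKT branch, differed by 0.31 and Grb2, the adaptor that binds the active receptor, by -0.33 on one probe and 0.06 on the other. Of 17 probes for inhibitors and receptor turnover, 0 reached an unadjusted p under 0.05 in limma. The largest differences there were 0.44 for Dusp6, a phosphatase that acts on ERK, and -0.57 for Cblb, a ubiquitin ligase, followed by 0.19 for Spry2 and -0.20 for Lrig1.

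Transcripts that ERK signalling is known to induce had the highest median of the pathway lists, 0.38 over 10 probes, with 6 above 0 and 1 higher at an unadjusted p under 0.05, beside 6.52% of all probes. That was Fos, an immediate early transcription factor, at 10.98, 10.19, 9.93, 12.63 and 12.07 in NP kidneys and 11.65, 12.43, 13.04 and 13.30 in MSC kidneys. The log2 difference was 1.44 (SE 0.57, FDR from limma 0.390). NP kidneys 4 and 5 and MSC kidneys 3 and 4 all lay on slide 2, and they held the highest values of their groups. Egr1, another immediate early factor, differed by 1.04 on its first probe and 0.93 on its second (FDR from limma 0.552 and 0.576). Phlda1 differed by 0.33, Ier3 by -0.21 and Myc by -0.11.

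**Figure D3:**
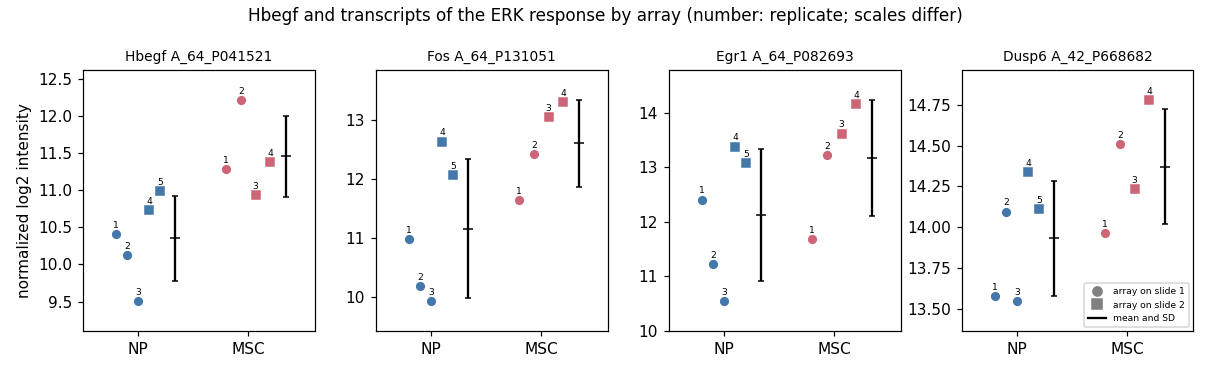
Normalised log2 intensity (vertical axis, its scale set per panel) of Hbegf, Fos, Egr1 and Dusp6, with 1 point per array numbered by replicate, circles for slide 1, squares for slide 2 and bars for the mean ± SD. Fos ran from 9.93 to 10.98 in the NP kidneys of slide 1 and reached 12.07 and 12.63 in those of slide 2.

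**Figure D4:**
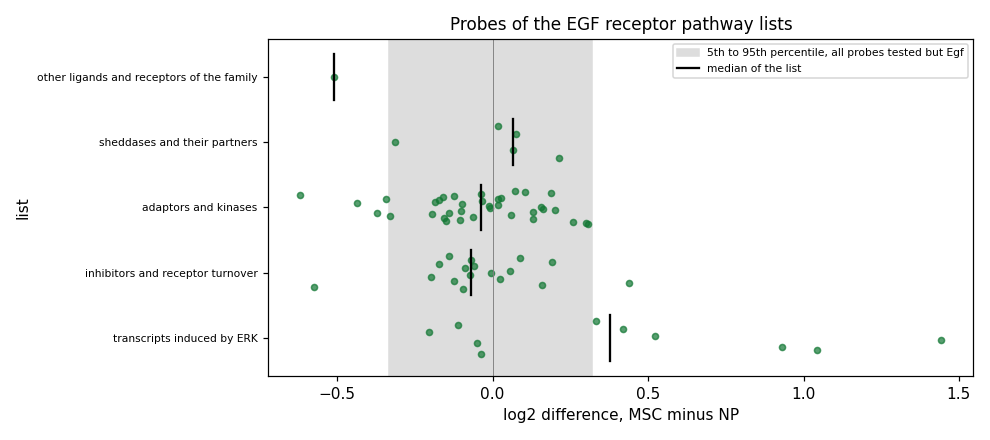
Log2 difference of MSC less NP kidneys (horizontal axis) for the 69 pathway probes that passed the filter, with 1 row per list, a black line at each list's median and a grey band from the 5th to the 95th percentile of all probes but Egf. Most points lie inside the band, and Fos lies farthest to the right at 1.44.

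The tissue carried the markers of kidney, with 8 of 8 genes of the thick ascending limb and 9 of 9 of the proximal tubule past the filter. In whole tissue, more cells of a type and more message per cell cannot be told apart. The thick ascending limb list, from a main site of Egf, had a median log2 difference of 0.13 over 12 probes, with 7 above 0 and 2 higher at an unadjusted p under 0.05, beside 6.52% of all probes. Slc12a1, its salt cotransporter, differed by 0.50 and the potassium channel Kcnj1 by 0.31, -0.027 and 0.11 on its probes, while Cldn16 differed by -0.33 and Umod, the urinary protein uromodulin, by 0.14 (FDR from limma at least 0.385). The mean level of the list ran from -0.13 to 0.02 in NP kidneys and from -0.17 to 0.24 in MSC kidneys, relative to its mean over arrays. The list for the distal convoluted and connecting tubule had a median of 0.41 over 13 probes, with 12 above 0, and 7 higher and 1 lower at an unadjusted p under 0.05 (6.52% and 5.16% of all probes). Slc12a3, the salt cotransporter of the distal convoluted tubule, differed by 0.59 and 0.41 on its probes, Calb1 by 1.13, Tmem52b by 0.86 and 0.28, and S100g, a calcium-binding protein, by -0.33 (FDR from limma at least 0.104). The list had levels of -0.41 to 0.04 in NP and 0.06 to 0.38 in MSC kidneys. It holds Calb1 and Tmem52b, which the study had picked from these arrays as significantly higher in MSC kidneys. Neither was called here, with an FDR from limma of 0.229 for Calb1 and of 0.104 and 0.640 for the Tmem52b probes. Without these genes the median was 0.41 over 10 probes, with 9 above 0 and 5 higher at that unadjusted p. The levels were then -0.36 to 0.12 in NP and 0.04 to 0.28 in MSC kidneys. The medians of the collecting duct lists were 0.42 for principal cells (7 probes, 3 higher at an unadjusted p under 0.05) and 0.55 for intercalated cells (7 probes, 4 higher), beside 6.52% of all probes. Scnn1b, a subunit of the epithelial sodium channel, differed by 0.97 and Atp6v0d2, a proton pump subunit, by 0.76 (FDR from limma 0.332 for both), and the study had picked Atp6v0d2 from these arrays too. At the other end of these lists, the water channels Aqp2 and Aqp3 differed by 0.13 and 0.11, the anion exchanger Slc4a1 by 0.084 and Fxyd4 by -0.085. Among NP kidneys both collecting duct lists had the order of the Egf probes, with kidney 1 the highest and kidney 2 the lowest. In MSC kidneys both lists ran 4, 1, 3 and 2 from the highest. There A_64_P120734 ran 4, 3, 1 and 2, and A_42_P831499 ran 1, 4, 3 and 2. The thick ascending limb list ran 5, 4, 2, 1 and 3 in NP kidneys, unlike Egf. Whether the share of these segments in each piece of tissue had a part in the Egf difference was not tested.

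**Figure D5:**
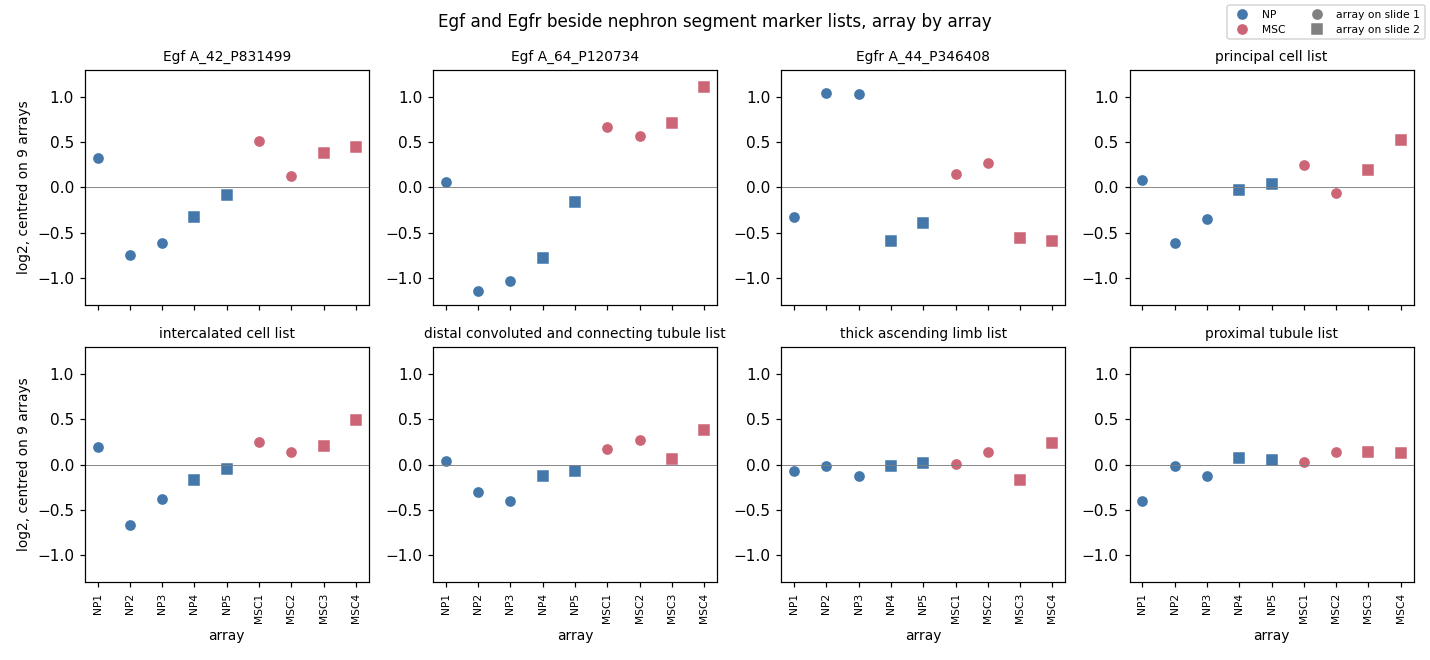
Level on each array of both Egf probes, Egfr and 5 lists of nephron segment markers, in log2 units centred on the mean over 9 arrays, with circles for slide 1 and squares for slide 2. NP kidneys 2 and 3 are lowest for Egf and for the principal cell list (-0.62 and -0.35), and MSC kidney 4 is highest for that list at 0.52.

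The markers of other tissue that a kidney sample could hold also differed between arrays. The perirenal fat list had a median log2 difference of 1.33 over 4 probes, the highest of the lists, with Cfd at 2.02, Adipoq at 1.43, Fabp4 at 1.23 and Cidec at 0.36 (FDR from limma at least 0.332). Its mean level ran from -1.12 to 0.06 in NP kidneys and stood at -1.01, 0.27, 2.13 and 1.41 in MSC kidneys 1 to 4, with Lep well above background on 0 arrays and Plin1 on 1. The mesenchymal stromal cell list ran from -0.53 to 0.26 in NP and from -0.10 to 0.45 in MSC kidneys, with a median log2 difference of 0.29 over 8 probes and 7 above 0. Col1a1, a collagen of many stromal cells, differed by 1.06 and 0.70 on its probes (FDR from limma 0.332 for both), Col1a2 by 0.57, Eng by 0.49, Nt5e by 0.092, Itgb1 by 0.075 and 0.025 and Cd44 by -0.27, and Thy1, Itga5 and Lum did not pass the filter. The injured tubule list had a median of 0.31 over 8 probes, with 6 above 0. Krt8 and Vim each differed by 0.43 (FDR from limma 0.332 and 0.333) without overlap, as 3.15% of all probes did with MSC higher, and Lcn2 and Sox9 differed by -0.23 and -0.11. The medians of the other lists were 0.16 for the proximal tubule, -0.30 for podocytes, 0.05 for endothelium, 0.03 for urothelium and 0.20 for leukocytes. Of the 11 proximal tubule probes, 9 were above 0 and 3 were higher at an unadjusted p under 0.05 in limma, beside 6.52% of all probes. Groups did not overlap there for Slc5a2 (0.44) and for Slc5a12 on A_44_P112304 (0.47), again beside 3.15% of all probes. The urothelium list stood at -0.94 and -0.81 in MSC kidneys 1 and 2 against 1.11 and 0.67 in MSC kidneys 3 and 4, with -0.51 to 0.30 in NP kidneys. The podocyte list was at -0.90 in MSC kidney 4 and between -0.27 and 0.40 in all others. The part of these lists in the Egf and Hbegf differences was not tested.

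The profiles most like that of Egf were ranked by the root mean square distance over 9 arrays between log2 values centred on each probe's mean. This distance includes the difference between groups for which Egf was chosen. Close profiles therefore share its rise, and the ranking is a description only. Nearest to A_42_P831499 were Prss23 (0.102), Gpr160 (0.112), Hsd11b2 (0.113), Smpdl3a (0.114) and Rhbg (0.128). Hsd11b2 is an enzyme of principal cells and Rhbg an ammonia transporter of the distal nephron. Nearest to A_64_P120734, a ranking added after the values were seen, were Scnn1b (0.232), the unnamed probe A_64_P097754 (0.263), Klk1c6 (0.279), Calb1 (0.299) and Rhcg (0.301). Calb1 codes for a calcium-binding protein of the distal tubule. Nearest to Hbegf, also added later, were Cldn4 (0.336), Emp1 (0.381), Gadd45g (0.394), Anxa1 (0.415) and Scnn1b (0.427).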

How the data were processed

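RNA of 5 NP and 4 MSC kidneys was read on Agilent rat arrays of 1 colour. The authors deposited the spot intensity values from Agilent Feature Extraction 10.7.3.1 (probes placed on rn4) and a table of log2 values normalised between arrays. Here the mean intensity of 58717 gene spots was taken without background subtraction, log2 transformed and normalised by cyclic loess with the negative controls. Spots marked as outliers were left out and spots of a probe averaged. Over probes these values correlated with the deposited log2 values at a Pearson's r that rounded to 0.9999 or more on every array. The cutoff of each array was 1.1 times the 95th percentile of its negative controls on the log2 scale, which gave 8.75 to 8.87. Probes above it on at least 4 arrays were kept (15628 of 30367 probes). Some probes left out were well above background, as both Adam10 probes were on 9 arrays. Arrays had between 65.6% and 74.3% of gene spots well above background.

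Each probe that passed the filter was tested with limma 3.58.1 in R 4.3.3, without covariates. For the member probes among them, Egf left out, a two-sided exact permutation test was run beside it. The methods of the study keep 1 probe per gene, which was an alternative here. Other alternatives changed the intensity column, scaling, filter, variance model, blocks and threshold and left out each array. The model was tested on simulated data. The members and lists were chosen with earlier results of these data known. Members are named in full. In each list the rule took the 2 probes with the smallest p in each direction and any gene whose groups did not overlap, and of the marker lists some of these are printed. All 14 member probes were found in a current RefSeq name table and 0 had a new name. No per-sample column was left unused (0). The MSC array that the study discarded was not analysed here. No rn4 annotation was used, so exons are not named.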

Additional observations from a re-analysis of the deposited data

How the results depend on the processing

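Under 21 alternatives and the within-slide values, each member difference that was computed kept its direction except Egfr, which turned to 0.070 with array weights (FDR from limma 0.939, against 0.587 to 0.944 over all alternatives). Egf A_42_P831499, Tgfa A_64_P122865 and Erbb2 A_64_P109493 had no value with 1 probe per gene. Egf A_64_P120734 ranged from 1.24 without NP replicate 2 to 1.54 without NP replicate 1, and A_42_P831499 from 0.54 to 0.81 with the same arrays left out. Hbegf ranged from 0.85 to 1.27 when 1 array was left out. Over all alternatives its FDR from limma ran from 0.204 to 0.585. With array weights 2 probes of the whole array were called higher. At an unadjusted p under 0.05 with the fold limit, 95 probes were higher and 82 lower, with 1 member (Egf left out) and 2 pathway probes. At that p alone these were 1019, 806, 1 and 8.

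Groups share replicate numbers, but the deviations of same-numbered kidneys had correlations of 0.20, 0.32, -0.35 and 0.048, so the numbers were not taken as pairs. With the replicate block 0 probes were called by limma, and Hbegf differed by 1.26 and Egf A_64_P120734 by 1.49. Dim probes, Ereg above all, set a limit on what could be read.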
